A study of Mus musculus with 3 samples.

Results

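Actb and Tuba1b, the genes of beta-actin and of an alpha-tubulin, were followed in polymorphonuclear myeloid-derived suppressor cells (PMN-MDSCs), immature cells of the neutrophil lineage that restrain T cells in tumor hosts. They are 2 of the 15 genes that the array files name by a RefSeq transcript, out of 60915 probes. Each was taken by its probe, CUST_9_PI419532418 with the transcript NM_007393.3 for Actb and CUST_1_PI419532418 with NM_011654.2 for Tuba1b, and RefSeq pairs these accessions with those symbols. The other probe considered for Tuba1b, CUST_8_PI419532418, bore another gene's accession and was not used.

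Total RNA was labelled with Cy3 and hybridised to a mouse lncRNA array in 1 colour, with 1 array for each of 3 groups. The tumor group held cells from tumor tissue of tumor-bearing mice, the tumor-bearing spleen group cells from spleens of tumor-bearing mice, and the wild-type spleen group cells from spleens of wild-type mice. The labels name the cells of all groups PMN-MDSCs, those of wild-type mice included, and the name is used here on that ground alone. All groups were male C57BL/6 mice of 6 to 8 weeks, the cells were enriched with a mouse MDSC kit and sorted on CD11b and Ly6G, and the labels give neither the tumor line nor the number of mice behind an array. The Ly6G antibody is labelled with clone RB6-8C5, which is usually sold as anti-Gr-1 and also binds Ly6C. None of 33 marker genes of neutrophils, monocytes and other cell types had a named probe (0 of 33), so the identity of the sorted cells could not be checked on these arrays. A difference in cell composition and a difference in RNA per cell cannot be told apart in such bulk RNA.

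Beta-actin polymerises into the filaments that drive cell shape, migration and phagocytosis, all of which neutrophils depend on. Alpha-tubulin pairs with beta-tubulin to build microtubules, which carry organelles and granules and form the mitotic spindle of dividing precursors. Both genes are in common use as loading or reference genes, on the assumption that their transcripts vary little between samples. Each has close relatives. RefSeq lists 7 protein-coding genes whose symbol is Tuba followed by a digit, of which Tuba1a and Tuba1c directly follow Tuba1b on chromosome 15. The 6 actin genes include Actg1, which encodes the other cytoplasmic actin. The probe sequences were not used here, so how far each probe also reads a relative is unknown.

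Each probe was repeated in 20 spots per array, and these repeats are technical. With a single array per group there was no replicate of any condition, so no difference has a test, and 2-fold is used only as a descriptive limit of size. All usable spots of both probes were well above background on all 3 arrays. Their signals ran from 109748 to 551679 units, where the median signals of 15 negative probes ran from 2.90 to 17.1 units. No spot was saturated, although the brightest Tuba1b spot, on the wild-type array, reached 70.9% of the scanner's saturation value. Signals that differ between arrays as a whole were made comparable by subtracting, on the log2 scale, each array's 75th percentile, which was 524 units for tumor, 509 for tumor-bearing spleen and 698 for wild-type spleen. A level below is this scaled log2 signal, with the SD between spots.

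Actb read highest in PMN-MDSCs from tumor-bearing spleen. There its processed signal ran from 245572 to 264235 units over 19 usable spots, with a median of 254849.7. In wild-type spleen it ran from 207407 to 232594 over 20 spots, with a median of 219304. In the tumor it ran from 190742 to 217963 over 20 spots, with a median of 197516. As deposited, the spots of tumor and wild-type spleen therefore overlapped and the tumor array held the lowest signals, while tumor-bearing spleen stood above both.

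After scaling, the order of tumor and wild-type spleen was the other way round. The Actb level was 8.97 ± 0.03 (SD, 19 spots) in tumor-bearing spleen. It was 8.58 ± 0.05 (SD, 20 spots) in the tumor. It was 8.30 ± 0.04 (SD, 20 spots) in wild-type spleen. The ranges of the spots did not overlap between any pair of arrays: 8.91 to 9.02, 8.51 to 8.70 and 8.22 to 8.38, in the same order. Tumor-bearing spleen was thus the array with the highest Actb signal on both scales, but which array was lowest depended on the scaling.

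Tuba1b was highest in wild-type spleen and lowest in tumor-bearing spleen, the reverse of the Actb order after scaling but not of that as deposited. Its processed signal ran from 469446.5 to 551679 units in wild-type spleen, with a median of 487482 over 18 usable spots. In the tumor it ran from 273604 to 316487, with a median of 289155 over 17 spots. In tumor-bearing spleen it ran from 109748 to 119616, with a median of 116462 over 19 spots. No spot of one array came near those of another, and this order was the same before and after scaling.

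On the scaled log2 axis the Tuba1b level was 9.48 ± 0.08 (SD, 18 spots) in wild-type spleen. It was 9.12 ± 0.06 (SD, 17 spots) in the tumor. It was 7.83 ± 0.03 (SD, 19 spots) in tumor-bearing spleen. For both genes the PMN-MDSCs of the tumor lay between those of the spleens on this scale, and nearer to wild-type spleen. For Actb this depended on the scaling. After quantile normalization its level in the tumor differed by 0.64 from wild-type spleen and by -0.14 from tumor-bearing spleen. The plot of repeated spots shows both genes on both scales.

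**Figure D1:**
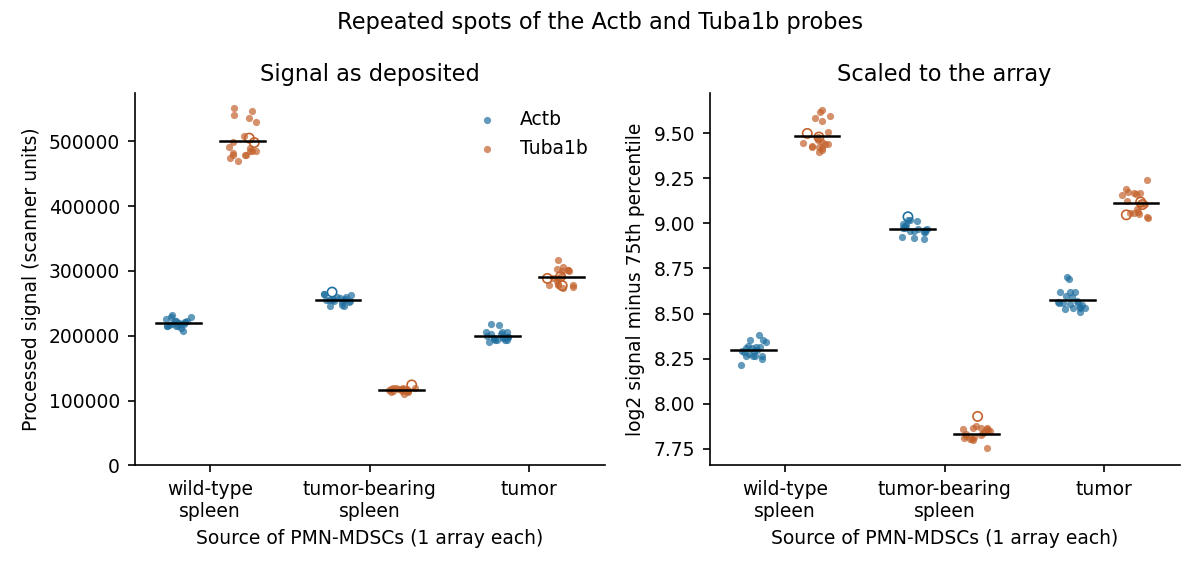
Repeated spots of the Actb (blue) and Tuba1b (orange) probes on the 3 arrays, as deposited processed signal in scanner units (left) and as log2 signal minus the array's 75th percentile (right). Points are spots, open circles are spots with an outlier flag that were left out, and black lines are means; Tuba1b is lowest in tumor-bearing spleen, where Actb is highest.

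The first comparison set PMN-MDSCs of the tumor against those of wild-type spleen, the pair named in the series design. Tissue and host both differ between these arrays and cannot be told apart in this comparison. Neither gene was past 2-fold. Actb read 1.21-fold higher in the tumor, a log2 difference of 0.28 ± 0.07 (SD between spots, combined over both arrays). Tuba1b read 1.29-fold lower, a difference of -0.37 ± 0.10. After scaling, at the same position on both arrays, Actb was higher in the tumor at 20 of 20 positions and Tuba1b lower at 17 of 17. Scaling shifts every position by the same amount, and as deposited Actb was lower in the tumor at each of these positions. Counts of positions speak only to these arrays and not to further mice.

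These are small differences for this pair of arrays. Of 43421 probes measured on both, 37.8% were past 2-fold, 19.6% higher and 18.3% lower in the tumor. The Actb difference was larger in size than that of 22.1% of the probes and the Tuba1b difference larger than that of 28.9%. The sign for Actb rested on the scaling: without scaling between arrays its difference was -0.14, where the median over all probes was -0.40, so Actb lay 0.26 above that median on either scale. By the same measure the Tuba1b difference minus the median over all probes was -0.39. In the authors' deposited table the Actb difference was 0.65, over 1.5 times the value given above, and that of Tuba1b was -0.28.

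The second comparison kept the organ the same and set PMN-MDSCs of tumor-bearing spleen against those of wild-type spleen. Here the genes parted most. Tuba1b read 3.14-fold lower in tumor-bearing mice, a log2 difference of -1.65 ± 0.08. Actb read 1.59-fold higher, a difference of 0.67 ± 0.05. Tuba1b was past 2-fold at 17 of 17 shared positions, where the differences ran from -1.82 to -1.55, and Actb at 0 of 19, where they ran from 0.59 to 0.76.

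The spleens differed widely over the whole array, with 49.3% of 42323 probes past 2-fold, 27.4% higher and 21.9% lower in tumor-bearing mice. A difference as low as that of Tuba1b or lower was seen at 14.6% of probes. Counted in either direction, the Tuba1b difference was larger in size than that of 72.2% of probes. The Actb difference exceeded in size that of 36.0% of probes, and since the median over all probes was itself 0.29, Actb lay only 0.38 above it. Without scaling between arrays the Actb difference was 0.22 and the Tuba1b difference -2.10. Under all 9 alternatives Tuba1b thus stayed past 2-fold downward and Actb within 2-fold.

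The last comparison stayed within tumor-bearing mice and set PMN-MDSCs of the tumor against those of the spleen. Tuba1b read 2.43-fold higher in the tumor, a log2 difference of 1.28 ± 0.07. Actb read 1.31-fold lower, at -0.39 ± 0.06. Tuba1b was past 2-fold at 16 of 16 shared positions, with differences from 1.17 to 1.42, and Actb was lower in the tumor at 19 of 19, with differences from -0.46 to -0.25. In the authors' deposited table the Actb difference was only -0.14, and that of Tuba1b was 1.31.

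This pair of arrays differed least over all probes, with 28.9% of 42843 past 2-fold, 14.2% higher and 14.7% lower in the tumor. A share of 9.08% of probes had a difference as high as that of Tuba1b or higher. Counted in either direction, the Tuba1b difference was larger in size than that of 81.0% of probes. The Actb difference was larger in size than that of 33.3% of probes. The 3 comparisons use each array in 2 of them, so they are not independent of each other. The histogram of all probes places both genes in each comparison.

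**Figure D2:**
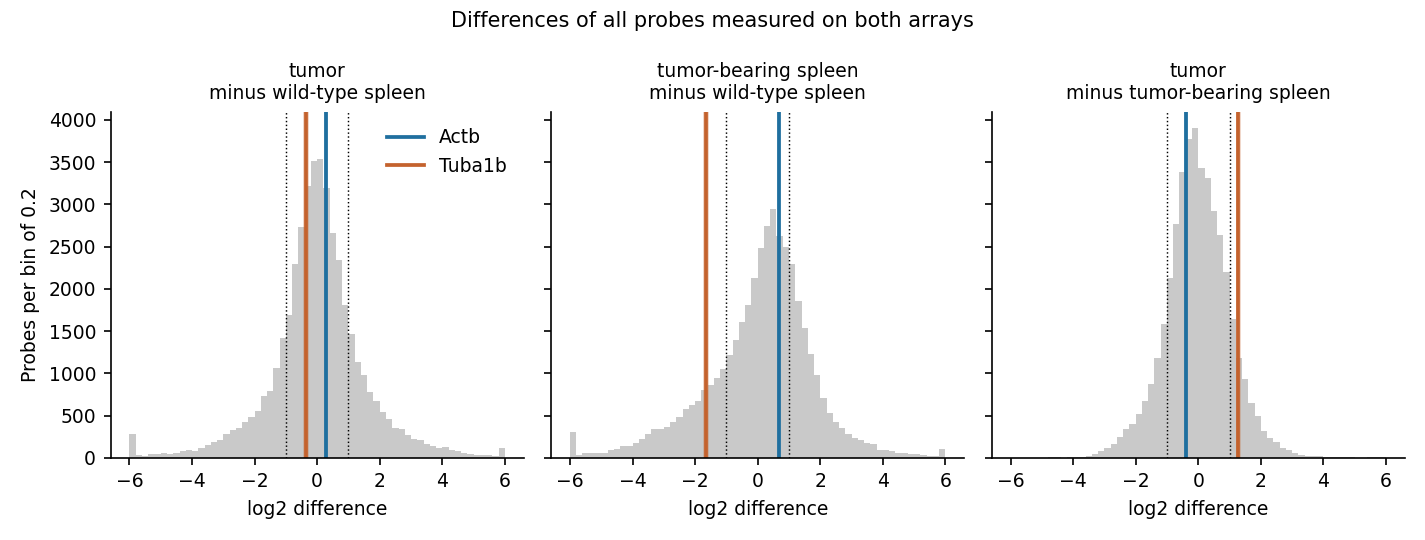
Number of probes by log2 difference, in bins of 0.2, for the probes well above background on both arrays of each comparison, with Actb (blue) and Tuba1b (orange) as lines whose shaded width is the SD between spots. Dotted lines mark 2-fold, and probes beyond 6 in size (347, 368 and 6 from left to right) are counted in the outermost bins; Tuba1b passes the 2-fold lines in the middle and right panels and Actb in none.

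Bright probes were past 2-fold less often than the array as a whole, so the genes were also read against probes of similar brightness, a class set after their levels had been seen. There were 463 probes with a mean level over the 3 arrays of at least 8, both genes included. Tuba1b entered by its mean, since its level in tumor-bearing spleen was 7.83, so the shares below only describe its place in this class. Of these, 6.7% were past 2-fold between tumor and wild-type spleen, 4.1% higher and 2.59% lower in the tumor. Between the spleens 18.1% were, 6.48% higher and 11.7% lower in tumor-bearing mice. Between tumor and tumor-bearing spleen only 12 bright probes (2.59%) were, 8 of them (1.73%) lower in the tumor and 4 (0.864%) higher, and Tuba1b is 1 of these 4. Its difference there was larger in size than that of 99.1% of the bright probes, between the spleens larger than that of 95.7%, and between tumor and wild-type spleen larger than that of 52.5%. Actb exceeded 42.1% of bright probes between tumor and wild-type spleen, 64.4% between the spleens and 64.6% between tumor and tumor-bearing spleen.

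The genes moved unequally, and the size of that inequality does not depend on any constant factor between arrays. The Actb difference minus the Tuba1b difference was 2.32 ± 0.10 (SD between spots) between tumor-bearing and wild-type spleen, which is a 5.00-fold shift of one relative to the other. Between tumor and tumor-bearing spleen it was -1.68 ± 0.09, a 3.20-fold shift. Between tumor and wild-type spleen it was 0.65 ± 0.12, a 1.56-fold shift, which became 0.93 in the authors' deposited table. This shows that the pair did not keep a fixed ratio over the arrays, not which of them held still.

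Because both are used as reference genes, the consequences of using either were counted. With Tuba1b as the reference, 72.8% of all probes measured in both spleens were past 2-fold upward in tumor-bearing mice and 7.32% downward. With Actb as the reference, 12.8% read higher and 33.2% lower. Between tumor and tumor-bearing spleen, scaling to Tuba1b gave 1.70% higher and 63.1% lower in the tumor, and scaling to Actb 25.3% higher and 8.36% lower. Between tumor and wild-type spleen, the shares were 28.1% higher and 12.9% lower with Tuba1b, and 15.1% higher and 24.0% lower with Actb. Taking a gene as the reference subtracts its own difference from that of every probe, so these shares restate the differences of Actb and Tuba1b in terms of the whole array and are no further evidence on either gene.

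**Figure D3:**
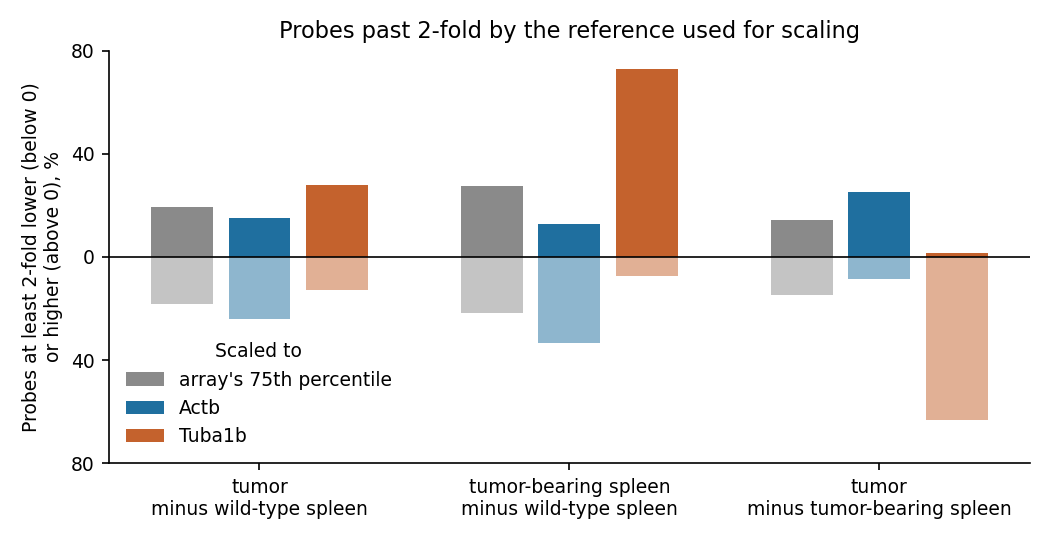
Share of probes at least 2-fold higher (above 0, full colour) or lower (below 0, pale) in each comparison, when arrays were scaled to their 75th percentile (grey), to Actb (blue) or to Tuba1b (orange). With Tuba1b as the reference 72.8% of probes read higher in tumor-bearing than in wild-type spleen, and with Actb 12.8%.

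The same subtraction was made for the other 13 named genes, most of them reference genes too. Between the spleens 7 of 13 were past 2-fold upward in tumor-bearing mice and 2 downward when set against Tuba1b, but 2 higher and 6 lower when set against Actb. Against the 75th percentile 3 were higher and 5 lower. Rpl13a, of the large ribosomal subunit, and Hsp90ab1, a cytosolic chaperone, were lower, and G6pd2 and the glycerol kinase gene Gk higher, under each of these scalings. Between tumor and tumor-bearing spleen 0 of 13 were higher and 7 lower against Tuba1b, and 4 higher and 1 lower against Actb.

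Among the 15 named genes Actb had the fifth smallest spread over the arrays, with 0.67 log2 units between its highest and lowest level (rank 5 of 15). The spread of Tuba1b was 1.65, rank 10 of 15. B2m, whose product is the shared subunit of MHC class I molecules, had the smallest, at 0.38, but after quantile normalization and in the authors' deposited table the gene with the smallest spread was Tbp, a general transcription factor, at 0.11 and 0.10. The rank of Tuba1b was 10 under all 7 scalings and corrections ranked, while that of Actb was between 2 and 5. Its spread was 0.35 without scaling between arrays and 0.79 in the authors' deposited table, so how steady Actb appears depended on the scaling.

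Likeness was measured as the distance between levels over the 3 arrays, each gene centred on its own mean. The named gene nearest to Actb was B2m, at a distance of 0.21 log2 units, followed by Gapdh, a glycolytic enzyme, at 0.39. The levels of B2m were 8.72 in wild-type spleen, 9.10 in tumor-bearing spleen and 8.78 in the tumor, so it too was highest in tumor-bearing spleen. Nearest to Tuba1b was Hprt, an enzyme of purine salvage, at 0.25, and then Gusb, the lysosomal beta-glucuronidase, at 0.67. Hprt read 8.05, 6.67 and 7.62 in the same order of arrays, lowest in tumor-bearing spleen as Tuba1b was. Among the 41251 probes well above background on all arrays, 2095 (5.08%) lay nearer to Actb than B2m did and 454 nearer to Tuba1b than Hprt did. Nearer to Actb than Gapdh lay 6328 (15.3%), and nearer to Tuba1b than Gusb lay 3668 (8.89%). With 3 arrays many probes share any given order, and the likeness is a description only.

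The rest of the cytoskeleton could not be followed. Of 6 actin genes 1 had a named probe, Actb itself, and of 15 tubulin genes 1, Tuba1b. None of 23 actin regulators such as profilin, cofilin and thymosin genes (0 measured) and none of 9 microtubule regulators (0 measured) was named. Whether actins or tubulins as families moved with these members is therefore not known from the named probes.

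Detrending within arrays differed and bears on the spread between spots. Per the file headers, the wild-type and tumor arrays went through a multiplicative detrending that the array of tumor-bearing spleen did not. On the wild-type array the coefficient of variation of the Tuba1b spots was 5.50% with it and 2.00% without it, on the tumor array 4.38% and 2.33%, and on tumor-bearing spleen it was 2.17%. For Actb the values were 3.74% and 1.86% on the tumor array, and 2.81% and 2.81% on the wild-type array. Spots of Tuba1b at the same position of the detrended arrays had a Pearson r of 0.75 over 17 positions, and of 0.36 without the detrending. Without the detrending Tuba1b differed between the spleens by -1.68, within the SD between spots of the value above, and Actb by 0.62, slightly more than that SD away from its value. The error model of the scanner software put a median of 10.0% on the signals of both probes on each array, more than the measured spread of any of these sets of spots.

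RNA quality could not be read at Actb or Tuba1b, which have no end probes on this array. The control probes at the ends of Pgk1 differed from wild-type spleen by -1.93 at the 5′ end and -0.56 at the 3′ end in tumor-bearing spleen, and by -1.98 and -0.85 in the tumor. Those of Gapdh differed by 0.13 and 0.30 in tumor-bearing spleen and by -0.60 and -0.55 in the tumor. The part of RNA integrity in the differences of Actb and Tuba1b was not tested.

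The plot of differences by processing sets the 3 comparisons side by side. The Tuba1b difference between tumor and tumor-bearing spleen was the steadiest, from 1.27 to 1.32 over all settings, while that of Actb between tumor and wild-type spleen ran from -0.14 to 0.65.

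**Figure D4:**
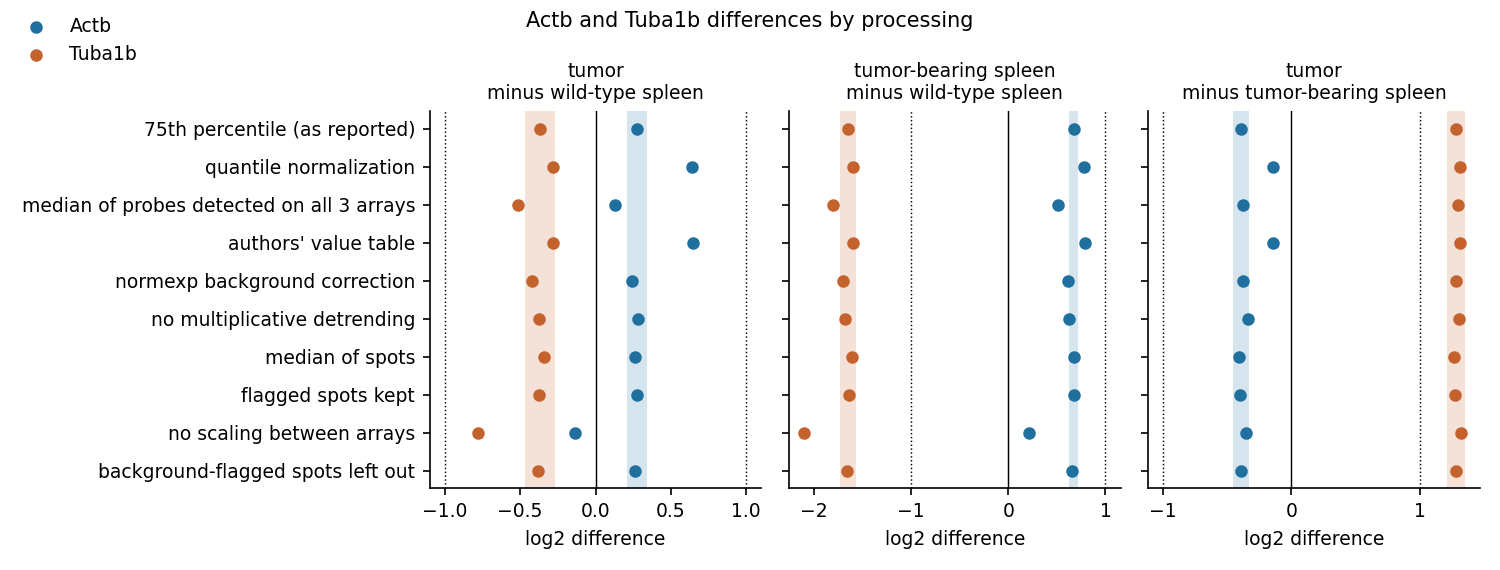
Log2 differences of Actb (blue) and Tuba1b (orange) in the 3 comparisons under 75th percentile scaling and each alternative processing; bands are the SD between spots around the reported value, dotted lines mark 2-fold, and the axes of the panels differ in range. Tuba1b stays past 2-fold in the middle and right panels under every processing shown, and Actb crosses 0 only without scaling between arrays, in the left panel.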

How the data were processed

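The deposited scanner files hold intensity values of a 1-colour scan. Per the file headers, Agilent Feature Extraction 11.0.1.1 subtracted the background and detrended the signals, array by array, with no scaling from one array to another. The header names mm9 as the build of the grid. The authors' deposited table holds log2 values, and the sources used here do not state their scaling. For both genes its values lay close to those after quantile normalization on each array. For Actb in the tumor both were 17.89, and for Tuba1b in tumor-bearing spleen they were 17.08 and 17.07. That table is therefore not an independent alternative to quantile normalization.

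Spots with a feature outlier flag, controls and negative probes were left out, and log2 processed signals were averaged per probe. A probe was compared when a share over 0.5 of its spots on each of both arrays was well above background. Symbols came from RefSeq (GRCm38.p6), where 15 of 15 accessions matched without versions, and its positions served only to order neighbouring genes, with none printed. Counting was tested on simulated data. The members and lists were chosen with earlier results of these data known. Genes named besides the members are the 2 nearest in level profile among the 15, and those in counts of the other 13 named after their values were seen. Alternatives were other scalings, background corrections (normexp with an offset of 50, on median signals because the files hold no mean spot signal), spot summaries and filters. No scaling between arrays and a stricter spot filter were added after seeing the data. Tools were Python 3.11.15, numpy 2.4.6, pandas 2.3.3, matplotlib 3.10.9, R 4.3.3 and limma 3.58.1. The number of arrays limits the precision.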

Additional observations from a re-analysis of the deposited data

How the results depend on the processing

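Each of the 6 differences of Actb and Tuba1b was recomputed under 9 alternatives. All stayed on the same side of 2-fold, and all kept their sign except Actb between tumor and wild-type spleen without scaling. The tumor against tumor-bearing spleen difference of Tuba1b ran only from 1.27 to 1.32. Values that moved by more than the SD between spots follow, with the comparisons abbreviated as tumor/wild-type, spleens and tumor/spleen. Quantile normalization gave Actb 0.64, 0.78 and -0.14 in that order. In the authors' table, which lay close to quantile normalization and is no separate support, Actb was 0.65, 0.79 and -0.14. The Actb minus Tuba1b difference was then 0.92 and 0.93 for tumor/wild-type, and -1.46 and -1.45 for tumor/spleen. Quantile normalization uses ranks, and Actb ranked 529 in wild-type spleen, 133 in tumor-bearing spleen and 193 in the tumor, from the brightest of 60915 probes. Scaling to the median of detected probes gave Actb 0.13 and 0.51 and Tuba1b -0.51 and -1.81 for tumor/wild-type and spleens. Without scaling these were -0.14, 0.22, -0.78 and -2.10. For the spleens Actb was 0.62 under normexp and 0.62 without multiplicative detrending. Of the moved values, the cause was not tested beyond what each construction shows. The count of probes past 2-fold moved by over 1.5 times only for tumor/spleen, from 12383 to 7744 under normexp and to 19083 with no filter on dim probes. Under normexp the same 42843 probes were compared, and the shares went from 14.2% higher and 14.7% lower to 8.75% and 9.33%. With no filter 60900 probes were compared, so the count rose with their number, and the shares were 16.3% higher and 15.1% lower. The share of those past 2-fold that were higher was 51.7% for tumor/wild-type and 55.6% for spleens, and 32.4% and 36.3% without scaling. No paired analysis was possible because each group has 1 array. The 1 array per group leaves the spread between mice unknown.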
